A study of Homo sapiens and Mus musculus with 21 samples.

Results

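The 10 genes EGR1, EGR2, EGR3, FOS, FOSB, IER2, NR4A1, DUSP2, DUSP6 and CD69 are switched on within minutes to hours when a T cell is activated. They were chosen by name from the 19848 genes of the knockdown expression table, with their behaviour in these data known: they were listed as falling when DHX15 was knocked down, and EGR1 and FOS as rising with the drug ciclopirox. In the thymus they were listed as marking T cell receptor signalling. All 10 were found in the knockdown table, in the ciclopirox table of 23037 genes and, under their mouse names, in the 28692 genes of the thymus matrices. Because the fall on knockdown and the rise of EGR1 and FOS with ciclopirox chose the genes, those values are given as a description without a test. All libraries of a hairpin lay below all control libraries for 8 of the 10 genes with shDHX15-1 and for 9 of the 10 with shDHX15-2, as chosen. Of the 15022 genes tested, 29.9% and 32.0% lay lower in this way. EGR2, EGR3, FOSB and NR4A1 were too low to be among the genes tested, so the sets differ. The data go against the label for EGR3, which had few reads and overlapped between all groups, and for NR4A1 with shDHX15-1, which also overlapped with its control.

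The study examined DHX15, an RNA helicase of the DEAH-box family that acts in pre-mRNA splicing, in acute leukemia. Its human cells are CUTLL1, an established line of T cell acute lymphoblastic leukemia. CUTLL1 cells were infected with lentivirus carrying the DHX15 hairpin shDHX15-1, the DHX15 hairpin shDHX15-2 or the control hairpin shGFP, with 3 libraries each. Further CUTLL1 cells received ciclopirox, an iron-chelating antifungal drug, at 5 µM, or DMSO, again with 3 libraries each. RNA that came down with a DHX15 antibody (2 libraries), with IgG (1 library) and input RNA (1 library) is summarised in 1 deposited list of peaks (RIP). Thymus cells of 6-week-old Dhx15 KO and Dhx15 fl/fl mice gave 1 droplet library each. The sources used here give neither the times after infection or treatment nor the Cre driver of the KO. They do not say that replicate libraries are separate cultures, so a p-value covers the scatter of the sequenced libraries, which may be technical.

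As background, engagement of the T cell receptor activates RAS and the kinases MEK and ERK. ERK phosphorylates the ternary complex factors ELK1, ELK3 and ELK4, which sit with serum response factor (SRF) on CArG boxes in the promoters of immediate early genes. EGR1, EGR2 and EGR3 are zinc finger transcription factors of this class. FOS and FOSB pair with JUN proteins to form the transcription factor AP-1, IER2 is a nuclear immediate early protein, and NR4A1 is an orphan nuclear receptor widely used as a reporter of receptor signal strength. DUSP2 and DUSP6 are phosphatases that switch ERK and related kinases off, and CD69 is an early surface marker of lymphocyte activation. In the thymus these genes mark cells whose receptor has met its ligand during selection.

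RefSeq promoter windows of GRCh38.p14, running from 250 bases before to 50 bases after the annotated start, were at hand for 8 of the 10 genes and not for EGR3 and CD69. Those of EGR1, FOS and IER2 are printed because EGR1 and FOS had the largest differences on knockdown and IER2 the highest level of the 10 after knockdown. Capitals mark the CArG box, the core TGACG of the cyclic AMP response element on either strand, and the TATA box TATAAA.
EGR1, chr5:138465229-138465528, plus strand: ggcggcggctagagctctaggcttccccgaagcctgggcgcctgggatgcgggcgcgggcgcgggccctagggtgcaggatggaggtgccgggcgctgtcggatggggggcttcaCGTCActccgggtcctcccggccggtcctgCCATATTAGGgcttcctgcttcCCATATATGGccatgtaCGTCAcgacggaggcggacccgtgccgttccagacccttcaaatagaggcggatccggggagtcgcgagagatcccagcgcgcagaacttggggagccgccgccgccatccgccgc
FOS, chr14:75278578-75278877, plus strand: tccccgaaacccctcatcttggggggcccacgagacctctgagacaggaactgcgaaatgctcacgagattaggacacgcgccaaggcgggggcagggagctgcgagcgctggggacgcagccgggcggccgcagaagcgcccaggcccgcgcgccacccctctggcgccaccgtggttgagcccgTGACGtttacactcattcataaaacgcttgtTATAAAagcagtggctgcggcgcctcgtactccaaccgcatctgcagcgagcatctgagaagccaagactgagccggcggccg
IER2, chr19:13150161-13150460, plus strand: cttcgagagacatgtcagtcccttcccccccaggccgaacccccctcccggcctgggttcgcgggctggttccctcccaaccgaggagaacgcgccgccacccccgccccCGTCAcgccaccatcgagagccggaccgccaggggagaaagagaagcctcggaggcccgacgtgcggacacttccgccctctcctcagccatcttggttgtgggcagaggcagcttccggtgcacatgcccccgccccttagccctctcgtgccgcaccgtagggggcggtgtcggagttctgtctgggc

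The EGR1 window held 2 CArG boxes, whose first bases lie 105 and 83 bases before the start, and TGACG, on either strand, at 135 and 66 bases before it. EGR2 has 3 windows and NR4A1 has 2, so the 8 genes have 11 windows. A CArG box was found in 2 of the 11, 1 each of EGR1 and EGR2, and in 1.29% of all 35116 windows of the same length. TGACG occurred in 5 of 11 windows (1 each of EGR1, EGR2, FOS, FOSB and IER2), against 24.6% of all windows, and TATAAA in 2 of 11 (FOS and FOSB), against 11.5%. The ETS core CGGAA occurred in 6 of 11 (both of NR4A1 and 1 each of EGR2, FOSB, IER2 and DUSP6), against 34.9%. The full cyclic AMP response element TGACGTCA, the longer ETS site CCGGAAGT, the EGR site GCGTGGGCG and the AP-1 site TGANTCA were found in none of the 11, against 1.85%, 4.14%, 0.795% and 7.71% of all windows. Each motif was searched on both strands, and TGACGTCA contains TGACG while CCGGAAGT contains CGGAA.

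The knockdown libraries held 59702150 to 62633707 reads and the drug libraries 32451469 to 37177509 reads. DHX15 itself was at 17.1, 17.3 and 16.5 RPKM (reads per kilobase of gene, scaled to library size) with shDHX15-1 and 16.1, 16.5 and 16.8 RPKM with shDHX15-2, against 42.8, 44.1 and 43.2 RPKM with shGFP. Of the 15022 genes tested against shGFP, 74.3% passed an adjusted p of 0.05 in limma with shDHX15-1 (45.4% higher, 28.9% lower) and 65.7% with shDHX15-2 (35.6% higher, 30.1% lower). Setting every library to the same median moved the median of all genes by 0.108 on the log2 scale for shDHX15-1 against shGFP. Of the genes called, 61.1% were higher for shDHX15-1 and 54.1% for shDHX15-2 on the deposited scale, and 46.0% and 46.5% were after that step. Fold changes below are on the deposited scale. In bulk RNA, fewer cells that express a gene and less RNA per cell cannot be told apart.

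Among the 3 EGR factors, EGR1 was the most abundant. On the log2(RPKM + 1) scale it differed more than any other of the 15022 genes tested, in either direction and with either hairpin. EGR1 was at 1.64, 1.26 and 1.32 RPKM with shDHX15-1 and at 1.61, 1.37 and 1.30 RPKM with shDHX15-2, against 97.9, 89.4 and 92.3 RPKM with shGFP. All 6 knockdown libraries lay far below all 3 controls, and the means differed 66.2-fold and 65.4-fold. On that scale, which understates changes of low genes, the difference was -5.29 ± 0.068 and -5.28 ± 0.068 (limma SE, n = 3 each).

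EGR2 was scarce. It had 6, 14 and 2 reads with shDHX15-1 and 2, 4 and 4 reads with shDHX15-2, against 71, 87 and 57 reads with shGFP. Its means were 0.0327 ± 0.0278 RPKM with shDHX15-1, 0.0147 ± 0.00488 RPKM with shDHX15-2 and 0.318 ± 0.0695 RPKM with shGFP (SD, n = 3 each) and its groups did not overlap. EGR3 had 10, 12 and 13 reads with shDHX15-1 and 16, 16 and 12 with shDHX15-2, against 8, 26 and 24 with shGFP. The groups of EGR3 overlapped, and no difference was detectable at this depth.

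FOS was the second lowest gene after EGR1 with either hairpin. It was at 0.237, 0.288 and 0.266 RPKM with shDHX15-1 and at 0.155, 0.179 and 0.160 RPKM with shDHX15-2, against 7.85, 7.64 and 7.63 RPKM with shGFP. These values rest on 15 to 28 reads per knockdown library and 756 to 774 per control library, and the means differed 29.2-fold and 46.7-fold. The log2(RPKM + 1) differences were -2.78 ± 0.040 and -2.90 ± 0.040. With a pseudocount of 0.1 in place of 1 the differences were -5.96 and -5.94 for EGR1 and -4.43 and -4.88 for FOS. FOSB had 6, 4 and 2 reads with shDHX15-1 and 0, 18 and 4 reads with shDHX15-2, against 57, 67 and 77 reads with shGFP, again without overlap.

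The remaining genes differed less, and their knockdown libraries kept a sizeable level. DUSP6 was at 1.19, 1.36 and 1.17 RPKM with shDHX15-1 and 1.07, 1.07 and 0.928 RPKM with shDHX15-2, against 6.82, 7.45 and 7.06 RPKM with shGFP, or 5.71-fold and 6.94-fold lower. DUSP2 was at 7.50, 6.12 and 7.63 RPKM with shDHX15-1 and 8.22, 6.77 and 8.17 RPKM with shDHX15-2, against 25.5, 22.9 and 23.4 RPKM with shGFP, or 3.38-fold and 3.10-fold lower. No knockdown library of either phosphatase reached the level of a control library.

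CD69 was at 8.49, 9.38 and 9.58 RPKM with shDHX15-1 and 9.23, 9.01 and 9.46 RPKM with shDHX15-2, against 29.2, 29.8 and 28.8 RPKM with shGFP. IER2 was at 22.6, 21.8 and 23.0 RPKM with shDHX15-1 and 25.6, 25.3 and 25.2 RPKM with shDHX15-2, against 63.9, 61.8 and 63.6 RPKM with shGFP. CD69 was 3.19-fold and 3.16-fold lower and IER2 2.81-fold and 2.49-fold lower, with no overlap. Counted from the lowest of 15022 log2(RPKM + 1) differences, DUSP6, DUSP2, CD69 and IER2 stood at places 6, 14, 17 and 28 with shDHX15-1 and at places 5, 12, 10 and 24 with shDHX15-2.

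NR4A1 did not follow the other genes in both hairpins. It had 69, 80 and 81 reads with shDHX15-1, against 78, 82 and 72 reads with shGFP, and the group means were 0.173 RPKM in both. With shDHX15-2 it had 16, 59 and 52 reads, a mean of 0.0942 ± 0.0503 RPKM, and the 3 libraries lay below the 3 controls. Of the 10 genes, 6 passed the minimum of 1 RPKM in at least 3 libraries (EGR1, FOS, IER2, DUSP2, DUSP6 and CD69), FOS through its shGFP libraries alone, and EGR2, EGR3, FOSB and NR4A1 did not.

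**Figure D1:**
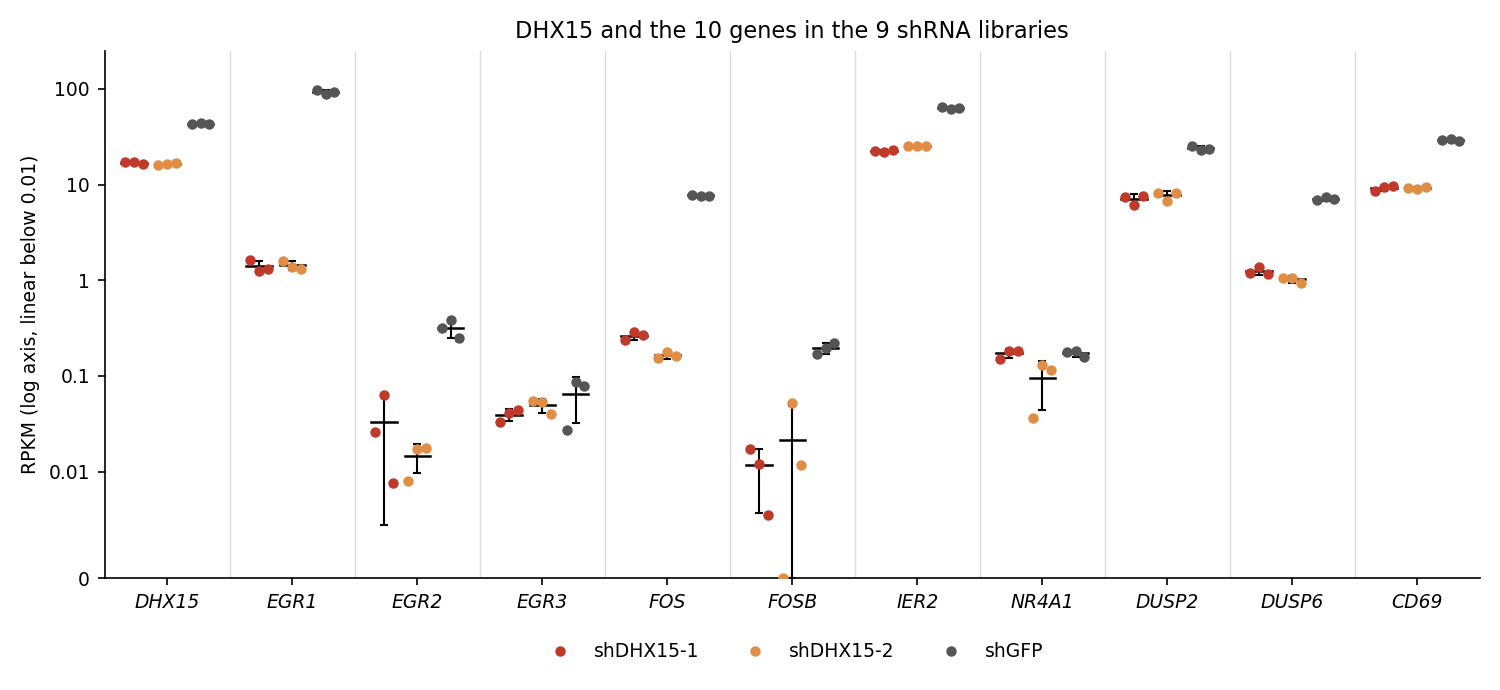
RPKM of DHX15 and the 10 genes in each of the 9 knockdown libraries, on a log axis that is linear below 0.01; points are libraries, lines are means and bars 1 SD (n = 3 per group). EGR1 sat between 1.26 and 1.64 RPKM in the 6 knockdown libraries and between 89.4 and 97.9 RPKM with shGFP, while EGR3 overlapped between groups.

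The contrast of one hairpin with the other was not used to choose the genes and could be tested. In limma over all genes, 61.1% of 15022 genes differed between shDHX15-2 and shDHX15-1 (23.2% higher, 37.9% lower), and 3 of the 6 testable members did, which is no more than the share of all genes. IER2 was higher with shDHX15-2, by 0.17 ± 0.024 on the log2 scale (adjusted p = 0.0003, limma). FOS was at 0.165 ± 0.0126 RPKM with shDHX15-2 and 0.264 ± 0.0258 RPKM with shDHX15-1 (SD, n = 3 each), and was lower with shDHX15-2 (log2 change -0.12 ± 0.040, adjusted p = 0.0308, limma). DUSP6 was also lower with shDHX15-2 (-0.15 ± 0.052, adjusted p = 0.0328, limma). The FOS and DUSP6 calls were lost when libraries were set to the same median (adjusted p = 0.325 and 0.22, limma). The FOS call was also lost without shDHX15-2 replicate 1 or 3, without shDHX15-1 replicate 2 or 3, and without any one shGFP library (adjusted p = 0.0527 to 0.0799, limma). The DUSP6 call was also lost without shDHX15-2 replicate 3 or shDHX15-1 replicate 2 (adjusted p = 0.108 for each, limma).

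EGR1, DUSP2 and CD69 did not pass between the hairpins. The difference for EGR1 was 0.01, with a 95% interval of -0.14 to 0.169 on the log2 scale (adjusted p = 0.865, limma). For CD69 the interval was -0.0782 to 0.105 (adjusted p = 0.79, limma) and for DUSP2 it was -0.0914 to 0.313 (adjusted p = 0.307, limma). DUSP2 passed on the recovered reads with both edgeR (log2 change 0.19, adjusted p = 0.0383) and DESeq2 (log2 change 0.19, adjusted p = 0.0281). The difference for DHX15 itself was -0.04 (adjusted p = 0.2, limma), with an interval of -0.0981 to 0.0177.

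The genes whose log2(RPKM + 1) values followed EGR1 most closely over the 9 libraries, among 1110 genes tested that spanned at least 1 log2 unit, were SCD, MT-TY, DHX15 and PI16, with Pearson correlations of 0.9992, 0.9982, 0.9979 and 0.9977, and a clone-named transcript at 0.9969. SCD, a fatty acid desaturase, averaged 91.5 and 92.1 RPKM with shDHX15-1 and shDHX15-2, against 187 RPKM with shGFP. PI16 averaged 4.67 and 4.47 RPKM, against 17.4 RPKM. FOS, a member, had a correlation of 0.9985. The 9 libraries form 3 groups of which 1 is high, so these correlations describe that shared step.

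The upstream genes were split between the directions. Of the 21 genes of the RAS and ERK cascade, 8 were higher and 5 lower with shDHX15-1, and 6 were higher and 6 lower with shDHX15-2 (limma, adjusted p under 0.05). Over all 15022 genes tested, 45.4% were higher and 28.9% lower with shDHX15-1, and 35.6% and 30.1% with shDHX15-2. The counts of the knockdown lists that follow stand beside the same shares. Their median log2 change was 0.0137 and -0.00273, against 0.0872 and 0.0267 over all genes tested. With shDHX15-1 the adaptor GRB2 fell (-0.41), and the GTPase-activating protein RASA1 (0.41), the scaffold KSR1 (0.34) and the kinase BRAF (0.31) rose. With shDHX15-2 the ERK-activated kinase RPS6KA1 (-0.41), MEK1 (MAP2K1, -0.31) and GRB2 (-0.30) fell, and the RAS exchange factor RASGRP1 rose (0.29).

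The 20 genes of proximal T cell receptor signalling also held both directions, with 8 higher and 8 lower with shDHX15-1 and 10 higher and 5 lower with shDHX15-2. The receptor zeta chain CD247 rose with both hairpins (log2 change 0.59 and 0.82), as did the phosphatase PTPRC, known as CD45 (0.36 and 0.77). With shDHX15-1 the adaptor LAT rose (0.43) and the adaptor LCP2, known as SLP-76, fell (-0.35). With shDHX15-2 the phosphatase PTPN6, known as SHP-1, fell (-0.34).

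Among SRF, its partners and the EGR corepressors, 4 of the 7 genes that passed the expression minimum were higher and 2 lower with shDHX15-1, and 1 was higher and 4 lower with shDHX15-2. The corepressor NAB1 rose with both (0.76 and 0.56). ELK1 was at 8.51 ± 0.33 RPKM with shDHX15-1, against 14.7 ± 0.24 RPKM with shGFP (SD, n = 3 each), and fell by 0.73 on the log2 scale. ELK4 moved in opposite directions, up with shDHX15-1 (0.42) and down with shDHX15-2 (-0.16). The SRF coactivator MKL2 rose with shDHX15-1 (0.47), and SRF (-0.23) and NAB2 (-0.27) fell with shDHX15-2.

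Other immediate early genes were mixed. Of 8 that passed the minimum, 3 rose and 3 fell with shDHX15-1, and 4 rose and 2 fell with shDHX15-2. BTG2, an antiproliferative gene, reached 13.2 ± 0.24 RPKM with shDHX15-1 and 9.59 ± 0.22 RPKM with shDHX15-2, against 3.32 ± 0.25 RPKM with shGFP (SD, n = 3 each). The transcription factor KLF10 rose in the same way (1.60 and 1.24 on the log2 scale), and CSRNP1 rose with shDHX15-1 (0.59). PPP1R15A, a regulatory subunit of a phosphatase, fell with both (-0.54 and -0.59), and the phosphatase DUSP1 fell with shDHX15-2 (-0.38).

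Only 3 of the 14 genes of ERK feedback and ETS targets passed the minimum. The inhibitors SPRED1 (-0.36 and -0.43) and SPRED2 (-0.30 and -0.50) fell with both hairpins, and SPRY1 rose with shDHX15-1 (0.26). In the calcineurin and NFAT list of 12 genes, 7 rose and 4 fell with shDHX15-1 and 5 rose and 5 fell with shDHX15-2. RCAN1, an inhibitor of calcineurin and itself an NFAT target, fell with both (-0.61 and -0.61). The calcium channel ORAI1 rose with shDHX15-1 (0.29) and fell with shDHX15-2 (-0.61), and CABIN1 (0.60) and PPP3CA (0.45) rose with shDHX15-1, while NFATC2 (0.38) and ITPR1 (0.28) rose with shDHX15-2.

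Of 11 other activation surface, cytokine and effector genes that passed, 5 rose and 6 fell with each hairpin. The cytokine TNF was at 10.6 ± 0.98 RPKM with shDHX15-1, against 22.6 ± 0.32 RPKM with shGFP (SD, n = 3 each), and fell by 1.03 on the log2 scale. The ligand CD40LG fell with both (-0.80 and -0.65). The costimulatory receptor ICOS (-0.65) and CD44 (-0.47) fell with shDHX15-1, CD28 fell with shDHX15-2 (-0.63), and CD83 (0.79) and TAGAP (0.53) rose with shDHX15-2.

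Of 12 markers of other cell types 4 were measured here, CD79A, CD68, PECAM1 and VIM, and all 4 passed the minimum. With shDHX15-1 CD79A and CD68 were higher and PECAM1 and VIM lower, and with shDHX15-2 CD79A, CD68 and VIM were higher and PECAM1 did not pass. CD79A, a B cell receptor subunit, was at 34.7 and 58.6 RPKM with shDHX15-1 and shDHX15-2, against 24.4 RPKM with shGFP, and CD68 at 6.42 and 4.25 RPKM, against 2.35 RPKM. VIM was at 100.3 and 209.8 RPKM, against 193 RPKM, and PECAM1 at 15.7 and 21.2 RPKM, against 21.4 RPKM. The part of these markers in the differences above was not tested.

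**Figure D2:**
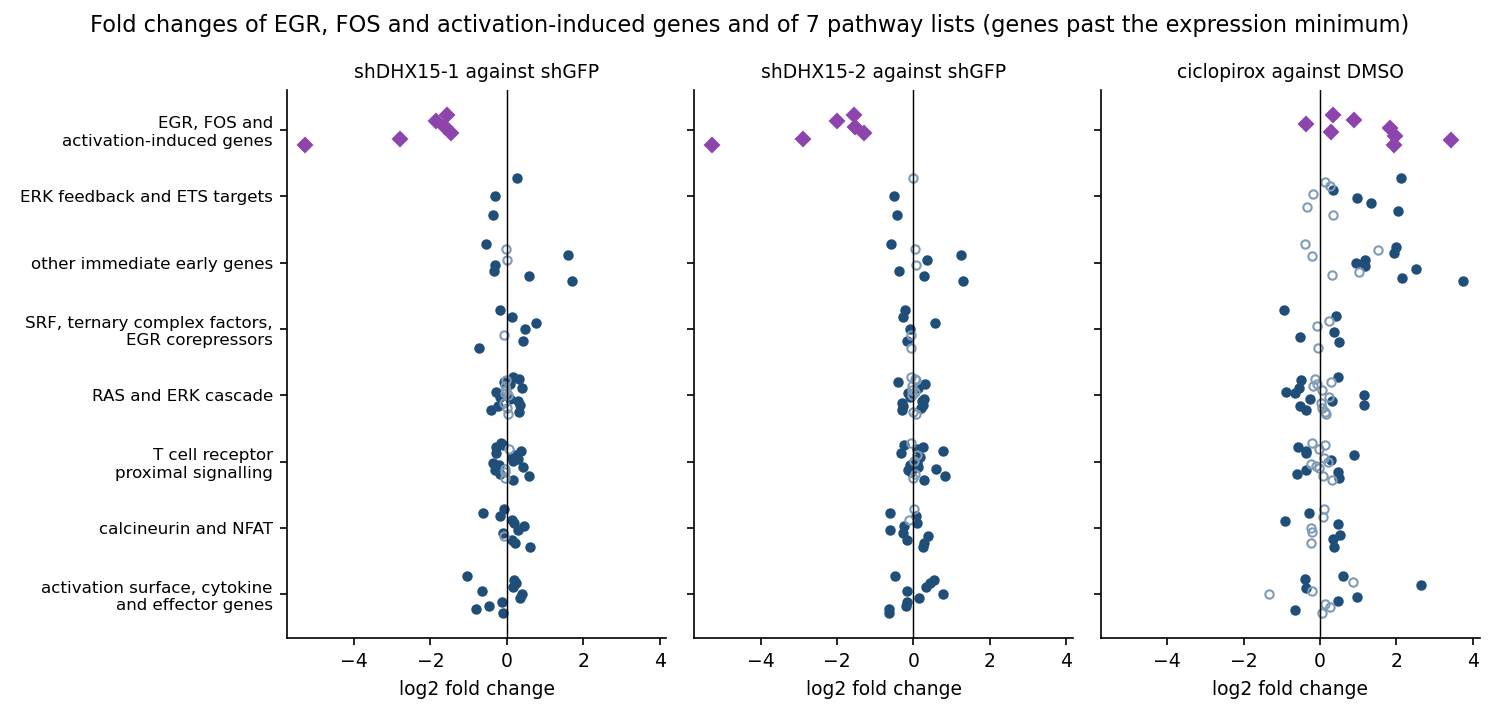
Log2 fold changes of the members that passed the expression minimum (diamonds, 6 in the knockdown panels and 8 in the drug panel, drawn without a test) and of 7 pathway lists (circles, 1 per gene, filled at an adjusted p under 0.05 in limma). EGR1 at -5.29 and -5.28 and FOS at -2.78 and -2.90 stand to the left of every pathway gene in the knockdown panels, and BTG2 at 3.73 is furthest right in the drug panel.

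With ciclopirox EGR1 and FOS, chosen for it, were higher. EGR1 had 1717, 2028 and 1841 normalised read counts with ciclopirox, against 550.2, 487 and 436 with DMSO, a mean ratio of 3.79 (log2 change 1.92 ± 0.12, limma SE, n = 3 each). FOS had 183, 287 and 231 with ciclopirox, against 25.3, 24.8 and 13.3 with DMSO, a mean ratio of 11.1 (log2 change 3.44 ± 0.30). Every ciclopirox library lay above every DMSO library for both genes. DHX15 had 9467 ± 661 with ciclopirox and 15830 ± 1171 with DMSO (SD, n = 3 each), and fell by 0.74 on the log2 scale (adjusted p = 8.7e-05, limma).

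The other 8 genes were not part of the choice in this experiment. In limma over 16825 genes 48.5% were called (adjusted p under 0.05), 23.5% as higher and 25.0% as lower, and of 5 genes tested here (IER2, NR4A1, DUSP2, DUSP6 and CD69) 3 were called, all higher. NR4A1 had 80.2, 104 and 107 with ciclopirox, against 36.2, 23.9 and 21.5 with DMSO, and rose by 1.83 ± 0.29 on the log2 scale (adjusted p = 0.000436, limma). FOSB had 28.7, 38.8 and 21.1 with ciclopirox, against 10.9, 4.97 and 5.11 with DMSO, a log2 difference of 1.97 ± 0.49 (limma SE). FOSB passed the minimum of 10 in 3 of 6 libraries through its ciclopirox libraries, so its value is a description without a test.

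DUSP6 had 670, 645 and 747 with ciclopirox, against 384, 356 and 362 with DMSO, and rose by 0.90 ± 0.123 (adjusted p = 0.000164, limma). IER2 had 2871, 3163 and 2781 with ciclopirox, against 2729, 2212 and 2250.0 with DMSO, and rose by 0.30 ± 0.11 (adjusted p = 0.0416, limma). The IER2 call was lost when libraries were set to the same median (adjusted p = 0.138, limma). It was also lost without any one of ciclopirox replicates 1, 2 and 3 and DMSO replicates 2 and 3, with adjusted p from 0.0524 to 0.162 in limma.

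CD69 and DUSP2 did not pass. CD69 had 1898, 1548 and 2111 with ciclopirox, against 1210.0, 1631 and 1536 with DMSO, a log2 change of 0.34 with a 95% interval of 0.0257 to 0.662 (adjusted p = 0.0702, limma). DUSP2 had 594, 728 and 459 with ciclopirox, against 896, 720.5 and 676 with DMSO, a log2 change of -0.38 with an interval of -0.764 to 0.00727 (adjusted p = 0.0966, limma). Both groups overlapped in both genes. Without ciclopirox replicate 2 both passed, CD69 at 0.47 (adjusted p = 0.0293, limma) and DUSP2 at -0.54 (adjusted p = 0.0327, limma), and CD69 also passed with DESeq2 (adjusted p = 0.0433).

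EGR2 and EGR3 stayed under the minimum. EGR2 had 1, 17 and 4 reads with ciclopirox, against 1, 1 and 1 reads with DMSO, so most of its sum came from 1 library. EGR3 had 7, 0 and 6 reads with ciclopirox, against 2, 5 and 1 with DMSO. A limit of 3 reads per library covers counting error only.

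**Figure D3:**
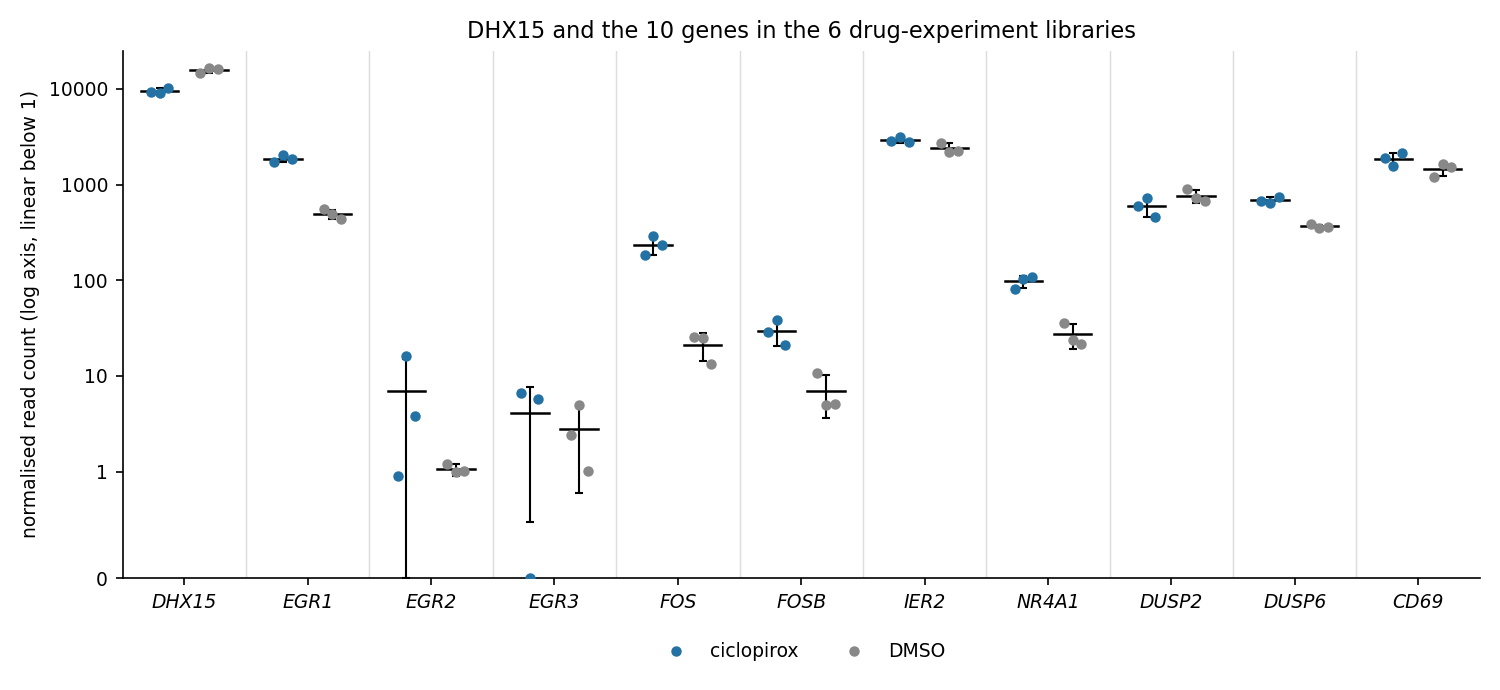
Normalised read counts of DHX15 and the 10 genes in each of the 6 drug-experiment libraries, on a log axis that is linear below 1; points are libraries, lines are means and bars 1 SD (n = 3 per group). EGR1, FOS, FOSB, NR4A1, DUSP6 and IER2 lie higher in all 3 ciclopirox libraries than in all 3 DMSO libraries, as do 27.4% of the 16825 genes tested, and DUSP2 and CD69 overlap.

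Immediate early genes and ERK feedback genes outside the chosen 10 were higher with ciclopirox where they were called. Of 13 other immediate early genes tested, 8 rose and 5 were not called, with a median log2 change of 1.17, against -0.0164 over all genes. Over all 16825 genes tested, 23.5% were called higher and 25.0% lower, which is the background for each list here. BTG2 rose most (799 ± 60 normalised counts with ciclopirox, 60.3 ± 15.1 with DMSO, SD, n = 3 each, log2 change 3.73), followed by FOSL2, a FOS-family partner of JUN (2.51), CSRNP1 (2.14) and PPP1R15A (1.99). Of 10 ERK feedback genes and ETS targets, 5 rose and 5 were not called. Those that rose included SPRY4 (2.13), the ERK phosphatase DUSP5 (2.05), the ETS factor ETV5 (1.33) and PHLDA1 (0.97).

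The signalling components were again mixed. The RAS and ERK list had 4 higher and 7 lower of 21, with the kinase MAPK7 (1.16) and KSR1 (1.14) up and NRAS (-0.89) and the RAS inhibitor NF1 (-0.65) down. Proximal receptor signalling had 4 higher and 5 lower of 19, with the phosphatase PTPN22 (0.90) up and the inhibitory kinase CSK (-0.61) and UBASH3B (-0.57) down. Of 8 SRF-related genes 3 rose and 2 fell, with SRF at -0.95 and ELK4 at -0.52 and with ELK3 at 0.50 and NAB2 at 0.42. Calcineurin and NFAT genes had 4 higher and 2 lower of 11, with NFATC2 (0.52), PPP3CA (0.47) and CABIN1 (0.36) up and PPP3CB (-0.93) down. Of 13 activation genes 4 rose and 3 fell: the inhibitory receptor PDCD1 (2.63), CD83 (0.97) and TNF (0.61) were among those up, and CD40LG (-0.64) among those down. Of the markers of other cell types, CD79A (0.43) and VIM (0.60) rose and CD68 and PECAM1 were not called. Their part in these differences was not tested.

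The control groups themselves stood at different levels. On the RPKM scale, computed for both tables from recovered reads and the same gene lengths, EGR1 was at 93.2 ± 4.36 in shGFP libraries and at 4.15 ± 0.36 in DMSO libraries (SD, n = 3 each), 22.5-fold apart. FOS was at 7.71 ± 0.12 in shGFP and 0.346 ± 0.107 in DMSO, 22.3-fold apart. The ratio of shGFP to DMSO was 3.38 for DUSP6, 3.05 for IER2, 2.29 for DUSP2, 2.13 for CD69 and 1.76 for NR4A1. Over 10985 genes the median ratio was 0.935, and 90% lay between 0.431 and 2.37. The tables were made and scaled separately and no test was made across them. With ciclopirox EGR1 was at 17.5 ± 1.38, above DMSO and below shGFP, and the knockdown levels of 1.40 ± 0.20 and 1.43 ± 0.16 were below all of these.

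**Figure D4:**
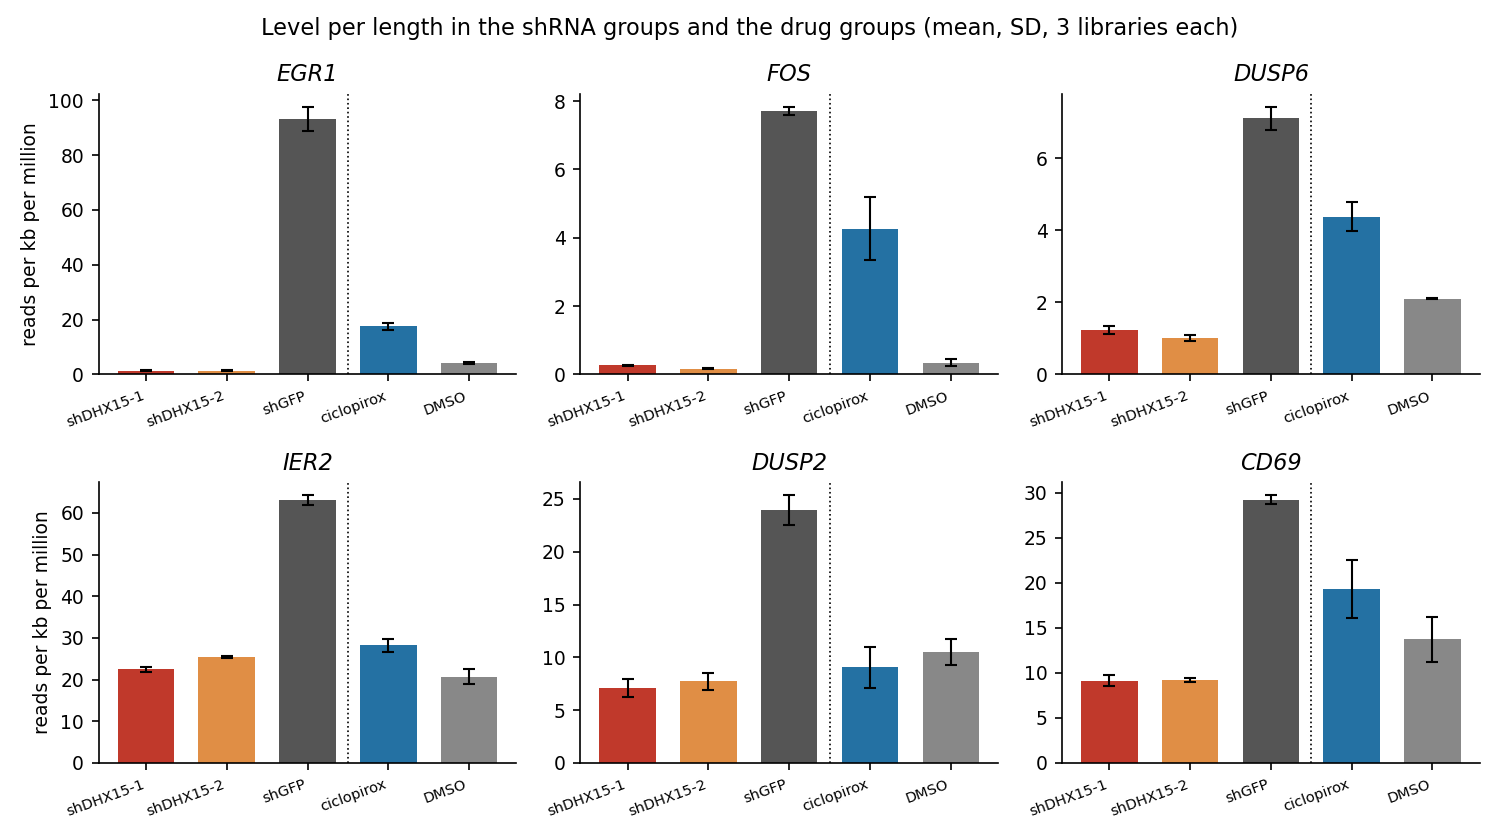
Level on the RPKM scale (reads per kb, scaled to library size) of 6 of the genes in the knockdown groups (left of the dotted line) and the drug groups (right of it), as means with 1 SD (n = 3 per group). EGR1 and FOS are 22.5 and 22.3 times higher with shGFP than with DMSO, and the levels across the line come from tables scaled separately.

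DHX15 peaks in the RIP list, whose fold enrichment, p and FDR are the authors' own values, fell on 2 of the 10 genes, EGR1 and FOS. Among 10027 protein-coding genes of the knockdown fit 26.2% held at least 1 of the 4499 peaks, and so did 2 of the 6 members in that fit, which is near this background. EGR2, EGR3, FOSB and NR4A1 are not in the fit. Among genes of the fit spanning under 10000 bases with a mean of at least 5 RPKM 29.9% held a peak. The peak list names no build, and positions are read in GRCh38.p14, in whose RefSeq genes these peaks lie. EGR1 held a peak of 914 bases at chr5:138465989-138466902 on the plus strand, bases 511 to 1424 of the gene, with a fold enrichment of 1.96 and an FDR of 3.01e-05. A second EGR1 peak of 376 bases, chr5:138466952-138467327, had a fold of 1.55 and an FDR of 0.0144. FOS held 1 peak of 745 bases, chr14:75278973-75279717 on the plus strand, bases 146 to 890 of the gene, with a fold of 2.02 and an FDR of 0.0165. The median fold over all peaks was 1.65, and 84.2%, 24.1% and 87.0% of peaks had a lower fold than these. The peak nearest to IER2 lay 349 bases from it. Peaks also fell on CSRNP1 and PPP1R15A among the other immediate early genes and on none of the 14 ERK feedback genes. A threshold of 2 on the fold left 1 member, FOS, and an FDR under 0.001 left 1, EGR1.

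In the thymus, Egr1, Egr2, Ier2, Nr4a1, Dusp2 and Cd69 had their highest CPM, in both libraries, in the cells marked as receptor-signalled. The genes were listed as marking receptor signalling in the thymus, so this place is a description without a test. CPM are UMIs of the gene scaled to the total of the class. Intervals overlapped those of the next class for Ier2 in both libraries, Dusp2 in fl/fl and Egr2 in KO. With every cell thinned to 2000 UMIs, fl/fl natural killer and innate-like cells stood above the marked cells for Ier2 (161 and 158 CPM) and Dusp2 (492 and 476 CPM). KO CD4 single positive-like cells did so for Egr2 (47.2 and 34.8 CPM), all with overlapping intervals. Dusp6 was highest in the marked cells in fl/fl and about as high in myeloid-like cells of KO (51.4 and 53.4 CPM). Fos was highest in cluster 16, an unnamed cluster led by Igkc and Ighg2b, at 37.9 CPM in KO and 46.9 CPM in fl/fl. Fosb was highest in mature single positive-like cells of KO (11.5 CPM, from 33 counts in 5 cells) and in cluster 16 of fl/fl (9.76 CPM, from 5 counts in 2 cells). Egr3 had at most 6 counts in any class of either library. Cells were clustered without the 10 genes and without the pathway lists, so that the classes did not rest on them, and 7206 Dhx15 KO and 8748 Dhx15 fl/fl cells were kept. The cluster called TCR-signalled-like from its markers Cd5, Itm2a, Tox, Gata3, Ikzf2 and Tox2 held 207 KO cells and 1054 fl/fl cells, or 2.87% and 12.0% of the libraries. With 1 library per genotype there is no replicate and no test: intervals are exact and cover counting error only. The libraries shared 17 barcodes, and the doublet caller marked only 2 and 1 cells, so doublets were in effect not removed. Dhx15 was at 112 CPM in KO and 190 CPM in fl/fl cells of the class, a ratio of 0.591 (0.479 to 0.723). The deleted part is not given in the sources used here and 3' tags may lie outside it, so this does not check the deletion.

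Within the TCR-signalled-like class the genes did not move as one. Egr1 was at 345 CPM (309 to 385) in KO and 498 CPM (477 to 519) in fl/fl cells, a ratio of 0.693 (0.616 to 0.779). Egr2 was at 37.8 CPM in KO and 81.6 CPM in fl/fl, a ratio of 0.463 (0.319 to 0.653). Both EGR factors were lower per UMI in KO cells of this class. With a minimum of 200 genes and no UMI minimum in place of the cell filter, the Egr1 ratio was 0.853.

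Nr4a1, Dusp2 and Cd69 were higher in the same KO cells. Nr4a1 was at 445 CPM in KO and 256 CPM in fl/fl, a ratio of 1.74 (1.55 to 1.94). Dusp2 was at 744 CPM in KO and 484 CPM in fl/fl, a ratio of 1.54 (1.41 to 1.67). Cd69 was at 890 CPM (831 to 952) in KO and 524 CPM (504 to 546) in fl/fl, a ratio of 1.70 (1.57 to 1.84). When clusters were built from all variable genes, these ratios were 1.24, 1.16 and 1.23, so their size depends on how the class is drawn.

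Ier2 was at 160.5 CPM in KO and 153 CPM in fl/fl, a ratio of 1.05 (0.875 to 1.25), and Dusp6 at 51.4 CPM in KO and 64.5 CPM in fl/fl, 0.797 (0.577 to 1.08), neither beyond counting error. Fos rested on 10 counts in KO and 78 in fl/fl, a ratio of 0.613 (0.283 to 1.19) that turned to 4.05 when clusters were built from all variable genes, so no direction is given. Fosb had 1 and 17 counts in KO and fl/fl cells of the class, and Egr3 had 0 and 1, where 3 counts would be 3.15 CPM in KO and 0.658 CPM in fl/fl.

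Cells with an Egr1 count made up 42.5% of KO and 42.2% of fl/fl cells of the class, at a median of 4147 and 4082 UMIs. With every cell thinned to 2000 UMIs, leaving out 6 KO and 48 fl/fl cells, the shares were 30.8% and 34.0%. In DN2 to DN3-like cells, an immature class, 2.81% of KO and 5.31% of fl/fl cells had an Egr1 count at medians of 9071 and 11635 UMIs. The fl/fl share rests on 6 of 113 cells. After thinning the shares were 1.06% and 1.77%, and the intervals overlapped both before and after. Cells with a Cd69 count were 78.7% of KO and 54.8% of fl/fl TCR-signalled-like cells, and 66.7% and 42.7% after thinning.

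Markers of other classes also differed in these cells. The 8 markers of resting double positive cells summed to 2310 CPM in KO and 3750 CPM in fl/fl cells, led by Cd8b1 (722 and 1290 CPM) and Rag1 (81.8 and 365 CPM), with none at 0. The 6 markers of the class itself summed to 5020 CPM in KO and 4450 CPM in fl/fl cells, and the 5 markers of mature single positive cells to 363 and 185 CPM. The 5 gamma delta T cell markers summed to 132 CPM in KO and 34.0 CPM in fl/fl cells. The 8 natural killer and innate markers summed to 27.3 and 5.26 CPM, with 3 and 2 of them at 0. The 5 CD8 single positive markers, which include Cd8a and Cd8b1, were lower in KO, at 1490 and 2450 CPM. The part of these differences in the ratios above was not tested.

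Egr1 was highest in the TCR-signalled-like class of both libraries. Next came CD4 single positive-like cells, at 210.2 CPM (179 to 245) in KO and 204 CPM (194 to 214) in fl/fl cells. In KO cells the order went on with mature single positive-like cells at 48.6 CPM (1 cluster, whose leading genes also hold the gamma delta T cell genes Trdc and Sox13), resting double positive-like cells at 36.1 CPM and natural killer and innate-like cells at 30.6 CPM, whose neighbouring intervals overlapped, and ended with cycling cells at 10.6 CPM and DN2 to DN3-like cells at 5.65 CPM. In fl/fl cells it went on with natural killer and innate-like cells at 126 CPM, the unnamed cluster 10 at 84.7 CPM and resting double positive-like cells at 26.5 CPM. Cycling cells at 16.9 CPM and DN2 to DN3-like cells at 16.1 CPM of fl/fl had intervals that overlapped. The unnamed clusters 7, 8 and 16 were at 12.6 CPM or less in KO and 13.7 CPM or less in fl/fl, and myeloid-like KO cells held 3 Egr1 counts.

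Cd69 was higher in KO in 5 of the 6 classes shown. In DN2 to DN3-like cells this rests on 7 counts in fl/fl, and the thinned intervals overlap. In cycling cells it was at 17.3 CPM (15.8 to 18.9) in KO and 14.04 CPM (12.0 to 16.3) in fl/fl, and with every cell thinned to 2000 UMIs at 16.8 CPM in KO and 18.3 CPM in fl/fl, so no direction is given there. Cd69 was at 454 CPM in KO and 212 CPM in fl/fl CD4 single positive-like cells, a ratio of 2.15 (1.91 to 2.41), and at 43.9 CPM in KO and 22.3 CPM in fl/fl resting double positive-like cells, 1.97 (1.68 to 2.31). Of the 1697 KO resting double positive-like cells 1529 came from cluster 2, which held 17 fl/fl cells, so the genotypes fill that class from different clusters. Dusp6 was at 33.7 CPM in KO and 54.7 CPM in fl/fl CD4 single positive-like cells, a ratio of 0.617 (0.398 to 0.917). Fos in that class was at 23.4 CPM in KO and 6.66 CPM in fl/fl, from 18 counts in 4 cells and 51 counts in 30 cells. Cells with a Fos count were 3.05% of KO and 2.95% of fl/fl cells of that class.

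**Figure D5:**
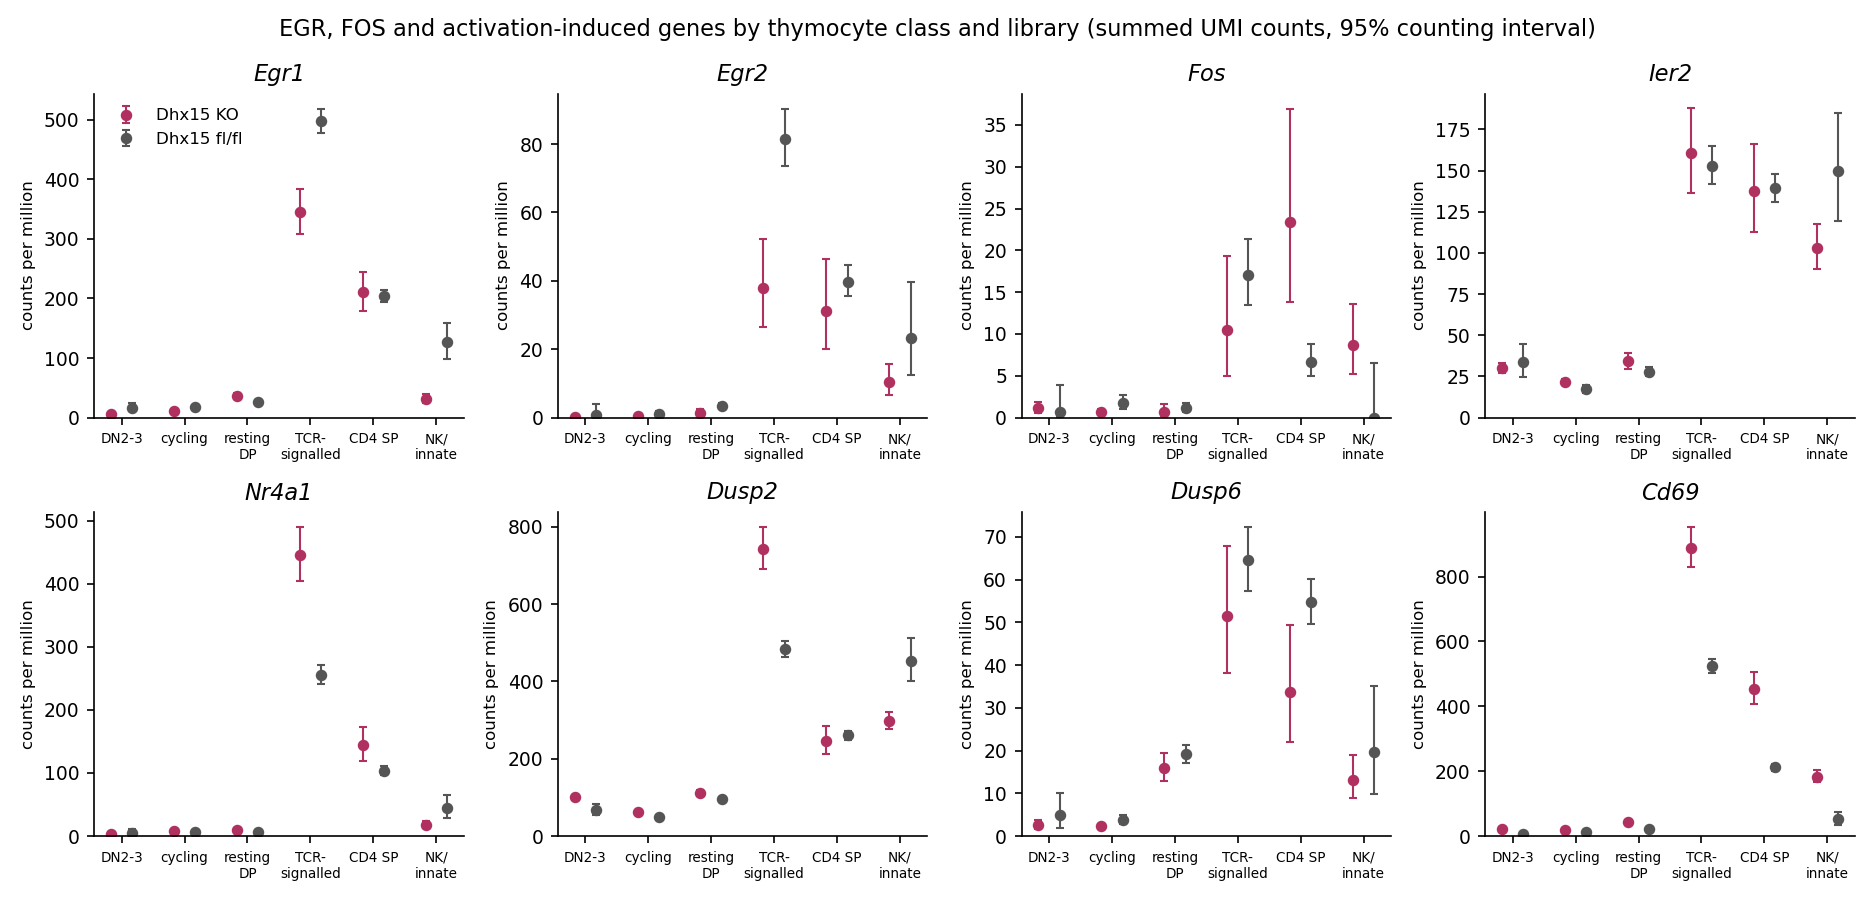
Level (CPM, from summed UMIs) of 8 of the genes in 6 thymocyte classes, Dhx15 KO left and Dhx15 fl/fl right in each class; bars are exact 95% Poisson intervals of 1 library each. In TCR-signalled-like cells Egr1 and Egr2 are lower in KO, and Nr4a1, Dusp2 and Cd69 are higher.

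Over all cells kept, the KO library was lower for Egr1 (20.1 and 99.2 CPM in KO and fl/fl, ratio 0.203), Egr2 (ratio 0.130), Dusp6 (0.243), Nr4a1 (0.411), Cd69 (0.479), Ier2 (0.614) and Dusp2 (0.661). TCR-signalled-like and CD4 single positive-like cells made up 2.87% and 1.82% of KO cells and 12.0% and 11.6% of fl/fl cells, and the part of these shares in the whole-library ratios was not tested. Fos (0.867, 0.722 to 1.04) and Fosb (1.41, 0.994 to 2.02) had intervals that included 1.

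The genes most like Egr1 over 20 class-by-library sums, among 9284 genes, were Pja1, Cd5, Gm14718, Slc37a3 and Limd2, with Pearson correlations of 0.929, 0.919, 0.899, 0.896 and 0.893. Cd5, a surface inhibitor of receptor signalling, was at 1122 CPM in KO and 862 CPM in fl/fl TCR-signalled-like cells and at 9.07 CPM in KO and 19.6 CPM in fl/fl DN2 to DN3-like cells. Among the members the correlations with Egr1 were 0.912 for Egr2, 0.849 for Nr4a1, 0.843 for Dusp2, 0.797 for Ier2, 0.769 for Cd69, 0.585 for Dusp6 and 0.198 for Fos. The points share 2 libraries and are not independent.

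Among the pathway lists in TCR-signalled-like cells, genes with at least 20 counts over both libraries were compared with a 2-fold rule, which 3.80% of 9396 genes passed as higher in KO and 4.42% as lower. Of the 21 RAS and ERK genes and the 20 proximal receptor genes, none was 2-fold higher or lower in KO. Of 17 activation genes 3 were higher and 1 lower, and these are named after their values were seen. The transcription factor Irf4 was at 30.4 CPM in KO and 3.73 CPM in fl/fl, the chemokine Ccl4 at 49.3 and 23.5 CPM, the costimulatory receptor Tnfrsf9 at 67.1 and 33.3 CPM, and Cd44 at 7.34 and 17.3 CPM. Of 13 other immediate early genes 2 were higher, among them the NR4A1 relative Nr4a2 (27.3 CPM in KO and 11.0 CPM in fl/fl), and 1, Arc, was lower (2.10 and 8.11 CPM). Of the members with 20 counts, none was higher and 1, Egr2, was lower.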

How the data were processed

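The authors deposited the knockdown data as RPKM per gene and library, and the ciclopirox data as a signal, read counts of each gene scaled by a size factor, with hg38 in the column names. That table also holds the authors' base mean, log2 fold change with its standard error, and p-values. The peak list gives the authors' fold enrichment, a ratio, with its p-value and FDR, and a score that was not used. The thymus matrices hold deposited UMI counts of filtered barcodes, per the file headers. The submitters' processing notes name Cell Ranger 6.0.2, Scanpy 1.7.1, STAR 2.4.1.7 and 2.7.5c, DESeq, DESeq2 1.32.0 and FastQC 0.11.9 without roles. The sources used here give no peak caller, counter or strand setting, so overlapping genes may share reads.

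Members and gene lists were chosen with earlier results of these data known. Values were tested as log2(value + 1) with limma 3.58.1 in R 4.3.3, with all 9 knockdown libraries in 1 fit and the 6 drug libraries in another, after a minimum of 1 RPKM or 10 normalised counts in at least 3 libraries, and p-values were Benjamini-Hochberg adjusted over all genes tested. Whole reads were recovered from the steps of the values (100% of values whole within 0.01) for edgeR 4.0.16 and DESeq2 1.42.0 as alternatives. On simulated data for shDHX15-1 against shGFP (14769 genes, 100 changed by each fold) limma called 73% of 1.5-fold and 99% of 2-fold changes, and 12 unchanged genes. The simulated spread was the same for every gene and was not matched to these libraries, so these shares are not the power of this experiment. Replicate numbers were checked for pairing: same-numbered knockdown libraries correlated by -0.000609 to 0.0951 in their deviations from the group means and drug libraries by 0.105, -0.108 and 0.163, so they were not treated as pairs. In each pathway list up to 4 called genes with the largest log2 change were named per comparison, and the 5 genes most like EGR1 or Egr1. Some genes that this rule names are not reported here.

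Thymus barcodes with at least 500 genes, at least 1000 UMIs and at most 10% mitochondrial counts were kept (8484 KO and 9434 fl/fl barcodes before, of which 12.8% and 5.78% were over the mitochondrial limit). Scanpy 1.11.5 chose 2000 variable genes. The cells were clustered on 30 components and 15 neighbours with leidenalg 0.10.2 at resolution 1.5, and the clusters were named from marker lists. Thymus intervals are exact Poisson or Clopper-Pearson at 95%, and those of log2 changes are 95% intervals from limma's moderated SE and degrees of freedom, not adjusted for the number of genes. Alternatives were other pseudocounts, filters, scalings and tools, a replicate block, single libraries left out, stricter peak limits, other cell filters and clusters, and thinning.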

Additional observations from a re-analysis of the deposited data

Results flagged for a closer look

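The authors' deposited table for ciclopirox gives a base mean per gene, their mean over all samples of that fit. For 9 of the 10 genes this mean was above each of the 6 libraries. Among genes with a base mean of at least 100 it was so for 7 of 8 members and for 10.3% of 12753 genes. The p-values of the authors' deposited table follow, for 23037 genes, from a chi-square of 2 degrees of freedom, as a joint test of 3 conditions would, and ciclopirox and DMSO are the conditions analysed here. The base mean in the authors' deposited table was 7697 for EGR1, against a highest library of 2028, and 1987 for FOS, against 287. It was 279.9 for FOSB, 1103 for DUSP6, 121 for NR4A1, 3835 for IER2, 2322 for CD69, 24.0 for EGR2 and 11.8 for EGR3 in the authors' deposited table. DUSP2, at 725, was not above each library.

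In the thymus, ratios of Dhx15 KO to Dhx15 fl/fl cells lay on opposite sides of 1 in different classes. The differences between classes were not tested, with 1 library per genotype. Egr1 had a ratio of 0.242 in natural killer and innate-like cells and 1.36 in resting double positive-like cells. The fl/fl natural killer and innate-like value rests on 71 counts in 11 cells, and with cells thinned to 2000 UMIs the levels were 44.1 CPM (26.9 to 68.0) in KO and 76.3 CPM (34.9 to 145) in fl/fl, whose intervals overlap. In resting double positive-like cells the share of cells with an Egr1 count was 3.36% (2.55 to 4.33) in KO and 3.88% (3.35 to 4.46) in fl/fl. After the same thinning the shares were 3.02% and 2.82%, so no direction of the share is given. Ier2 had 0.689 in natural killer and innate-like cells and 1.93 in cluster 16, an unnamed cluster led by Igkc and S100a8. The fl/fl value of Ier2 in cluster 16 rests on 21 counts in 13 cells. Too few fl/fl cells of that cluster were left after thinning to give a level. Nr4a1 had 0.389 and Dusp2 0.657 in natural killer and innate-like cells, against 1.74 and 1.54 in TCR-signalled-like cells. The fl/fl natural killer and innate-like value of Nr4a1 rests on 25 counts in 4 cells. After the same thinning Nr4a1 was at 26.4 CPM (13.7 to 46.2) in KO and 33.9 CPM (9.24 to 86.8) in fl/fl, Dusp2 at 352 CPM (300 to 411) and 492 CPM (373 to 635), and Ier2 at 132 CPM (101 to 170) and 161 CPM (96.9 to 251) in these cells, all with overlapping intervals.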

How the results depend on the processing

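Of 464 alternative values 384 kept their direction and call or moved by less than the replicate spread, or in the thymus by less than counting error. Some of these could not move. Leaving out a shDHX15-2 library, for example, leaves the log2 change of shDHX15-1 against shGFP as it was, as does the replicate block. The genes called numbered 11162 for shDHX15-1 and 9870 for shDHX15-2 against shGFP, 9177 between the hairpins and 8157 for ciclopirox, and with single libraries left out 10611 to 11083, 9103 to 9804, 8353 to 9234 and 6447 to 9055. Between the hairpins the direction turned with single libraries left out for EGR1 (-0.03804 to 0.08224) and CD69 (-0.03421 to 0.04444), neither of them called. With the replicate block the FOS call between hairpins was lost (adjusted p = 0.0608, limma) and DUSP2 was called with ciclopirox (adjusted p = 0.0484, limma); the block moved the genes called to 11106, 9729, 9034 and 8436. In edgeR, EGR1 was at -6.14 and -6.05 and FOS at -4.96 and -5.56 against shGFP. A peak fold of at least 2 or an FDR under 0.001 each left 1 gene with a peak. In TCR-signalled-like cells the lower cell filter gave KO to fl/fl ratios of 0.853 for Egr1 and 1.35 for Fos, and clusters from all variable genes gave 4.05 for Fos, 1.24 for Nr4a1, 1.16 for Dusp2 and 1.23 for Cd69; the cause was not tested. Leaving out the 5% of cells with the highest doublet scores, chosen after seeing the data, moved none of the 8 ratios beyond counting error. Matching peaks by a deposited gene name could not be run, as the peak list was matched by position. EGR2, EGR3, FOSB and NR4A1 rest on few reads per knockdown library.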
